A study of Mus musculus castaneus and Mus musculus domesticus with 13 samples.

Results

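This account concerns CAST mice, a wild-derived Mus musculus castaneus strain, and sets 4 CAST nuclear transfer embryonic stem cell (ntESC) lines against 1 culture of CAST tail-tip fibroblasts (TTF). The members are 5 libraries of 13, taken by their column names. These members, and the gene lists and markers below, were chosen with earlier results of these data known. To derive an ntESC line, a donor nucleus is put into an enucleated oocyte, and the cells are taken from the blastocyst that develops. The lines were #M2 and #M8 from male donors and #F1 and #F2 from female donors, and values below follow the order #M2, #M8, #F1 and #F2.

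Every line carried the genome of a CAST blood leukocyte, a monocyte or granulocyte judged by its size, in cytoplasm of a B6D2F1 oocyte. The lines were grown on C57BL/6 feeder fibroblasts in medium with LIF and inhibitors of MEK and GSK3, and the feeders were depleted by repeated plating before RNA was taken. The TTF came from the same strain but are not the donor cell type, and neither the sex of the mouse nor the passage is given in the sources used here. The Y-linked genes Ddx3y and Uty were present in the TTF at 157 and 27.6 CPM, and Xist, the RNA that coats an inactive X chromosome, had 2 counts there. The labels name no transgene or mutation in any of these cultures. Poly(A) RNA was sequenced once per culture, so the spread given for the lines is that between 4 lines and the TTF has none. The other libraries used are 2 B6D2F1 ntESC lines, #M3 and #F2, and 1 culture of B6D2F1 embryonic fibroblasts (MEF), which share no sample with the CAST libraries.

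Pluripotent cells of the mouse rest on a small network of transcription factors around Oct3/4, Sox2 and Nanog, and divide rapidly with little of a resting phase. Skin fibroblasts are mesenchymal cells that secrete and remodel the collagen matrix, pull on it with actin cables, and keep in culture the Hox gene pattern of the body part they came from. Setting one against the other in a single strain compares the stem cell state with a differentiated cell of the same nuclear background. The lines were also grown with LIF, the inhibitors and feeders and hold cytoplasm of another strain, none of which is described for the TTF. Cell state and these conditions cannot be told apart here.

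Levels are in CPM, the count of a gene over the scaled total of its library, with TMM factors, which correct library sizes for composition. The counts summed to 37275727, 45686935, 39444820 and 45690960 in the lines and to 46052068 in the TTF. A level of 3 counts, the floor under which a level is not told from 0, is 0.0625 to 0.0771 CPM in the lines and 0.0790 CPM in the TTF. A gene was called higher when each of the 4 lines exceeded the TTF at least 4-fold with a mean of at least 1 CPM, and lower when each line lay at least 4-fold under a TTF level of at least 1 CPM. These calls describe the size of a difference and are not tests. A fold change is the mean of the 4 lines over the TTF, with levels under the floor set to it, and is given as log2 unless called a fold.

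Of 16640 genes with at least 1 CPM on either side, 2765 (16.6%) were called higher in the ntESC lines, 2859 (17.2%) were called lower and 11016 were not called. Among the 2765 were 829 genes without a single TTF count and 1837 under 1 CPM in the TTF, and in 306 each line was at least 100-fold higher. Among the 2859 were 92 without a count in any line and 1067 with every line under 1 CPM, and in 227 each line was at least 100-fold lower. Protein-coding genes made up 2216 of the higher and 2620 of the lower calls, with 127 and 57 long intergenic noncoding RNAs. Any 2 lines differed 4-fold in 68 to 204 genes (0.441 to 1.31%), whereas a line and the TTF differed 4-fold in 6368 to 6642 genes (38.5 to 39.6%). The median log2 fold change over the genes examined was 0.04, and 0.37 when libraries were scaled by their totals only, a shift of 0.32, so differences of that size carry no direction here.

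All 16 core pluripotency genes on the list were called higher, against 16.6% of all genes examined, with a median log2 fold change of 11.18 against 0.04 over all genes, and their summed level was 4557 to 5249 CPM in the lines and 3.13 CPM in the TTF. Pou5f1, which encodes Oct3/4, stood at 810, 735, 824 and 825 CPM in the lines and had no count in the TTF, at least 10107-fold higher with the TTF at its floor of 3 counts. Sox2, the partner of Oct3/4 on many enhancers, stood at 180, 173, 193 and 203 CPM and likewise had no TTF count, at least 2371-fold higher. Nanog, which sustains self-renewal, stood at 502, 450, 403 and 538 CPM, against 0.342 CPM (13 counts) in the TTF, 1383-fold higher. Between lines the mean and SD were 798 ± 43.0, 187 ± 13.3 and 473 ± 59.2 CPM for the 3 genes (n = 4), a spread far smaller than the distance to the TTF. Dppa5a, Esrrb and Sall4, of the same group, also lacked TTF counts, and the lines exceeded the floor by at least 10041-fold, 9650-fold and 4016-fold. L1td1, an RNA-binding protein of pluripotent cells, varied more between lines, with 383, 251, 201 and 408 CPM against no count in the TTF.

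Of 16 genes of the naive state, the ground state of ESCs held by LIF and the inhibitors, 15 were called higher, with a median of 8.16. Tfcp2l1, a naive factor downstream of LIF, was at 559, 395, 331 and 389 CPM in the lines against 0.184 CPM in the TTF. Dppa3, which guards maternal methylation in the zygote, was at 113 to 129 CPM against no count. The exception was Klf4, one of the reprogramming factors, at 171, 241, 273 and 188 CPM in the lines and 161 CPM in the TTF. The line closest to the TTF exceeded it 1.06-fold. Klf2, a close relative in the naive network picked here after its values were seen, was 22.5-fold higher, at 192 to 239 CPM in the lines against 9.98 CPM.

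Genes of the formative and primed epiblast, the next stage of the embryo, were called higher in 12 of 13 cases (median 6.39). Nodal, the ligand that patterns the epiblast, stood at 107, 103, 123 and 140 CPM, and its antagonist Lefty2 at 50.5, 21.9, 13.7 and 73.4 CPM, both without a TTF count. Otx2, a factor of epiblast and forebrain, had 11, 14.8, 31.6 and 30.8 CPM against no count. Etv4, a target of FGF signalling, was the exception, with 8.50 to 19.4 CPM in the lines and 46.7 CPM in the TTF.

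Of 19 germline genes examined, 18 were called higher and none lower (median 7.77), and their summed level was 1045 to 1687 CPM in the lines and 4.37 CPM in the TTF. Dazl, an RNA-binding protein of germ cells, stood at 793, 696, 292 and 427 CPM against 0.132 CPM (5 counts), 4195-fold higher, with the male lines above the female ones. The meiotic genes Hormad1 and Sycp1 had 94.2 to 126 CPM and 47.1 to 117 CPM without a TTF count. Tdrkh, a partner of PIWI proteins, was not called, at 2.52 to 4.33 CPM in the lines and 1.66 CPM in the TTF.

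Of 16 genes of DNA methylation and demethylation, 7 were called higher, 2 lower (12.5%, against 17.2% of all genes) and 7 were not called. The de novo methyltransferase gene Dnmt3b was at 206, 130, 113 and 171 CPM in the lines and 1.40 CPM in the TTF, and Dnmt3l, its catalytically inactive partner, at 133 to 213 CPM against 2.34 CPM. Uhrf1, which brings the maintenance enzyme to newly copied DNA, was 101-fold higher (842 to 1086 CPM against 9.27 CPM), and the demethylating Tet1 60.2-fold higher. One of the lower genes was the methyl-CpG reader Mbd2, at 12.7 to 14.7 CPM in the lines and 78.8 CPM in the TTF.

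Zinc finger genes of the Zfp series were mostly not called, 269 of 350, as were 11016 of all 16640 genes. The median was 0.19. The 53 called higher made up 15.1%, near the 16.6% of all genes. The 28 called lower were a smaller share than the 17.2% of all genes. A group chosen after its values were seen stood out, the 19 genes numbered from Zfp900 to Zfp999 or related by name (Rex2, Zfp534 and Zfp600) on chromosome 4 of GRCm38 between 145510759 and 147848366, of which 18 were called higher with a median of 8.49. Zfp979 was at 280, 257, 247 and 277 CPM in the lines with no TTF count. These neighbours are close copies of each other, so reads may be split between them and the single values are uncertain.

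The epithelial adhesion genes followed the pluripotency genes, with 20 of 24 called higher and none lower (median 6.94). Cdh1, the E-cadherin that holds ESC colonies together, was at 492, 441, 418 and 443 CPM in the lines and 0.342 CPM in the TTF, 1311-fold higher. Epcam, another adhesion molecule of epithelia, was at 126, 159, 186 and 125 CPM with no TTF count, and Esrp1, a splicing regulator of epithelia, at 48.6 to 55.4 CPM, also with none. Dsp, a desmosome component, was not called and lay lower in the lines, at 50.6 to 73.0 CPM against 165 CPM.

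**Figure D1:**
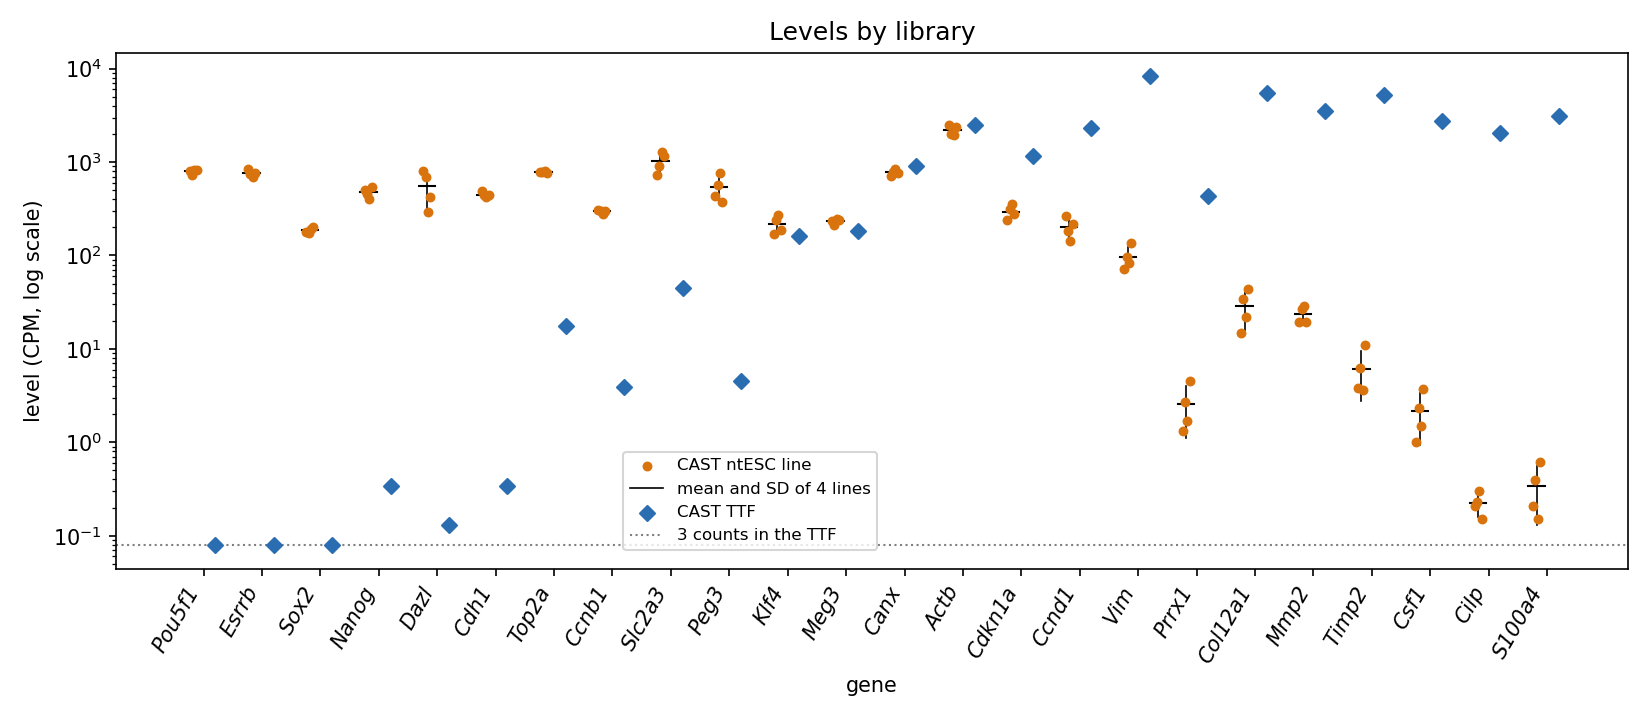
Levels of 24 genes in each of the 4 CAST ntESC lines (orange points, left of each pair) and in the CAST TTF (blue diamond, right of each pair), in CPM on a log axis, with a level under 3 counts drawn at 3 counts. The short line is the mean of the 4 lines and the bar their SD. Pou5f1, Esrrb and Sox2 lie at the floor in the TTF, S100a4 and Cilp lie under 1 CPM in every line, and for Klf4, Meg3, Canx and Actb the lines and the TTF lie close together.

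The mesenchymal transcription factors ran the other way. Of 29 examined, 25 were called lower and 2 higher, against 17.2 and 16.6% of all genes, with a median of -4.55. Prrx1, a limb and skin mesenchyme factor, stood at 1.31, 2.73, 1.68 and 4.52 CPM in the lines and 435 CPM in the TTF, 170-fold lower. Twist2, a dermal fibroblast factor, was at 0.100 to 0.472 CPM against 60.4 CPM, and Snai2, which represses E-cadherin, at 0.527 to 0.797 CPM against 87.6 CPM. The 2 higher genes were Osr2, a mesenchymal factor of palate and limb, at 9.56 to 16.9 CPM against 1.18 CPM, and Nfib, at 7.53 to 13.2 CPM against 1.13 CPM.

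Of 24 fibroblast marker genes, 20 were called lower and 2 higher (median -5.34). S100a4, named fibroblast-specific protein for its use as a marker, had 0.206, 0.396, 0.151 and 0.622 CPM in the lines and 3139 CPM in the TTF. Vim, the intermediate filament of mesenchymal cells, was at 71.8, 96.6, 83.4 and 135 CPM against 8256 CPM, and Pdgfrb, a growth factor receptor of fibroblasts and pericytes, at 4.20 to 5.04 CPM against 747 CPM. Thy1, often used to sort fibroblasts, went against the TTF label. It stood at 13.3, 9.91, 8.43 and 15.3 CPM in the lines and 2.50 CPM in the TTF, and was not called because the closest line lay under 4-fold. Dpp4, a surface protease of some skin fibroblasts, was at 31.0 to 52.3 CPM in the lines with no TTF count, and Nt5e (CD73) at 5.50 to 9.22 CPM against 1.18 CPM. The other 8 of the 9 fibroblast markers used to check the label were called lower in the lines, and all 9 exceeded 1 CPM in the TTF.

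The lines were not free of fibroblast transcripts, and how many they held differed by line. The 9 fibroblast markers summed to 159, 337, 231 and 506 CPM in the lines, which is 1.15, 2.44, 1.67 and 3.66% of the 13807 CPM in the TTF. Vim alone held 8256 CPM of the TTF sum and Thy1 ran the other way, so the percentage depends on the marker. Col3a1, a fibrillar collagen chain, was at 24.4, 81.2, 46.1 and 137 CPM against 1049 CPM in the TTF, and Dcn, a small proteoglycan that binds collagen, at 1.59, 7.12, 3.49 and 9.45 CPM against 159 CPM. Over 103 genes of the fibroblast and matrix lists that were called lower and averaged at least 1 CPM in the lines, #F2 was the highest line in 64 and #M2 the lowest in 56. Over all 1640 such genes called lower, #F2 was highest in 543 and #M2 lowest in 625. Feeder fibroblasts share these transcripts, and their part in the levels of the lines was not tested. In bulk RNA, fewer cells of a type and less RNA per cell cannot be told apart.

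**Figure D2:**
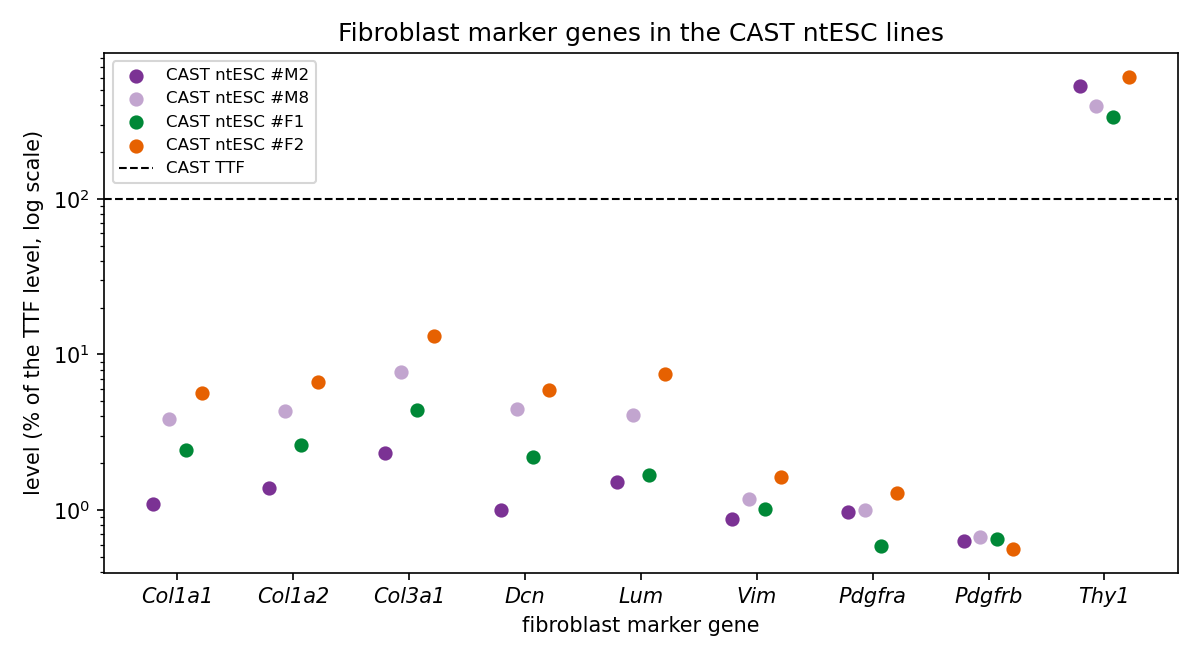
Level of the 9 fibroblast marker genes in each CAST ntESC line as a percentage of the CAST TTF level (log axis), with 1 colour per line, the dashed line at 100% marking the TTF. Col1a1, Col1a2, Col3a1, Dcn and Lum are lowest in #M2 and highest in #F2, whereas Pdgfrb is nearly the same in all lines and Thy1 lies above 100%.

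Collagen chains on the list were called lower in 19 of 25 cases (median -3.93), summing to 421, 677, 529 and 834 CPM in the lines and 17317 CPM in the TTF. Col12a1, a chain that links collagen fibrils, was at 14.9, 34.3, 22.0 and 43.4 CPM in the lines and 5461 CPM in the TTF, 191-fold lower, and Col8a1 at 3.73 to 9.92 CPM against 1643 CPM, 270-fold lower. Of all 43 collagen genes, 37 were examined, 23 called lower and 7 higher (18.9%, near the 16.6% of all genes), among the higher ones Col18a1, a basement membrane chain, at 124 to 171 CPM in the lines and 24.8 CPM in the TTF, and the cartilage-type chain Col9a2 at 24.1 to 28.0 CPM against 0.474 CPM.

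Matrix glycoproteins and crosslinkers were lower in 27 of 39 cases and higher in 3 (69.2 and 7.69%, against 17.2 and 16.6% of all genes). Bgn, a proteoglycan of connective tissue, was at 7.66, 25.2, 13.8 and 32.8 CPM against 3498 CPM. Tnxb, the tenascin of dermis, was at 0.557 to 1.05 CPM against 533 CPM. Both laminin-associated basement membrane genes Lama1 and Nid2 were among the 3 higher ones, at 49.1 to 76.3 CPM against 0.974 CPM and at 501 to 576 CPM against 22.8 CPM. Basement membrane is what the epiblast sits on in the embryo.

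Of 24 matrix protease and inhibitor genes, 23 were called lower and none higher (median -6.10). Timp2, an inhibitor of metalloproteases, was at 3.78, 6.29, 3.59 and 10.9 CPM in the lines and 5259 CPM in the TTF, 857-fold lower. Mmp2, the gelatinase it controls, was at 19.2 to 29.0 CPM against 3540 CPM, and Ctsk, a collagen-degrading cathepsin, at 0.602 to 1.48 CPM against 666 CPM. Mmp9 was the gene not called, at 0.351 to 1.26 CPM against 2.34 CPM.

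Contractile and cytoskeletal genes were lower in 22 of 31 cases and higher in none. Acta2, the smooth muscle actin of activated fibroblasts, was at 2.93 to 6.19 CPM in the lines and 650 CPM in the TTF, and Cav1, the coat protein of caveolae, at 1.41 to 7.20 CPM against 537 CPM. Cnn3, a calponin, was not called, with 641, 663, 702 and 707 CPM in the lines and 507 CPM in the TTF.

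Secreted signals of fibroblasts were the next group. Of 23 cytokine and chemokine genes examined, 12 were called lower and 1 higher (52.2 and 4.35%, against 17.2 and 16.6% of all genes). Csf1, the growth factor of macrophages, was at 1.0, 2.33, 1.51 and 3.75 CPM in the lines and 2771 CPM in the TTF, 1290-fold lower. Ccl2 and Ccl7, attractants of monocytes, were at 0.452 to 5.19 CPM and 0.527 to 2.79 CPM, against 775 and 677 CPM. Ccl11, the attractant of eosinophils, had no count in any line and 52.5 CPM in the TTF, at least 681-fold lower. Lif, the cytokine that is supplied to ESCs in the medium, was not called, at 17.3, 23.3, 38.1 and 25.7 CPM in the lines and 12.8 CPM in the TTF.

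BMP and activin signalling differed in its ligands and antagonists. Grem1, a secreted antagonist of BMP, was at 1.16 to 3.84 CPM in the lines, against 1886 CPM in the TTF. The activin subunit genes Inhba and Inhbb were 191-fold and 763-fold lower, with 646 and 1008 CPM in the TTF. The lines instead held Nodal, Gdf3, Lefty1 and Lefty2, none of which had a TTF count. In all, 18 of 33 genes of TGF-beta and BMP signalling were lower and 5 higher (15.2%, near the 16.6% of all genes). The receptor gene Tgfbr1 was not called, at 60.9 to 80.8 CPM against 163 CPM.

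Among growth factors, the lines and the TTF used different FGF ligands. Fgf4, the autocrine FGF of ESCs, was at 101, 116, 120 and 109 CPM in the lines with no TTF count, whereas Fgf2 was at 0.745 to 1.48 CPM in the lines against 706 CPM in the TTF, 625-fold lower. Kit, the receptor of stem cell factor, was at 127 to 171 CPM against 0.685 CPM. Gas6 was at 23.9 to 27.8 CPM against 3229 CPM, and its receptor gene Axl at 1.31 to 3.88 CPM against 614 CPM. Of 37 genes of this list, 21 were lower and 5 higher (13.5%, against 16.6% of all genes).

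The Wnt list split evenly, with 10 of 29 called higher and 10 lower (34.5% each, against 16.6 and 17.2% of all genes). The antagonist Dkk2 was at 0.514, 0.375, 0 and 0.472 CPM in the lines and 1090 CPM in the TTF, and Lgr5, a receptor of R-spondins, at 0.176 to 0.899 CPM against 392 CPM. Sp5, Cdx1 and T, targets of Wnt signalling in the streak, had no TTF count. T, or brachyury, varied between lines, at 14.1, 5.81, 2.53 and 8.47 CPM. Ctnnb1, which encodes the beta-catenin that carries the signal, was not called, at 649 to 771 CPM against 1020 CPM.

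**Figure D3:**
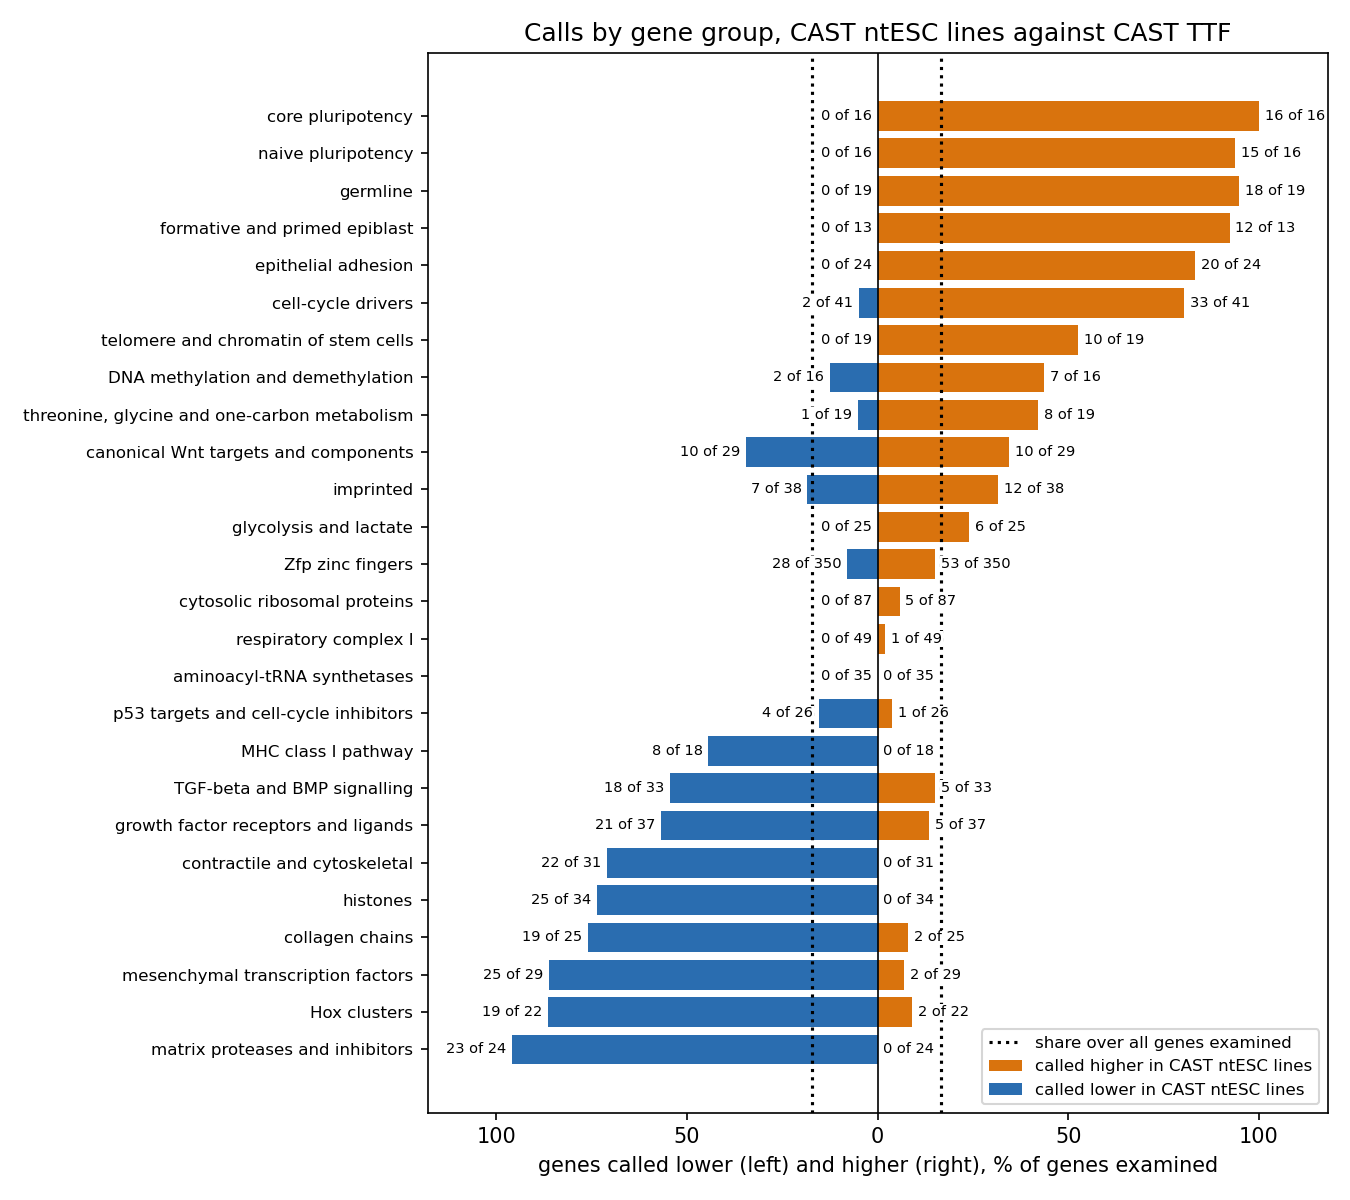
Share of examined genes called higher (orange, to the right) and lower (blue, to the left) in the CAST ntESC lines against the CAST TTF, in percent, for 26 gene groups, with the numbers called and examined written beside each bar. The dotted lines mark the shares over all 16640 genes, 16.6% higher and 17.2% lower. Pluripotency, germline and cell-cycle groups lie to the right, matrix and Hox groups to the left, and translation and respiration groups near 0 on both sides.

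Of 41 cell-cycle drivers, 33 were called higher and 2 lower (median 4.18). Top2a, which untangles chromosomes, was at 791, 788, 796 and 767 CPM in the lines and 17.4 CPM in the TTF, 45.1-fold higher, and the mitotic cyclin gene Ccnb1 at 281 to 308 CPM against 3.95 CPM, 75.3-fold higher. Mybl2, a regulator of late cell-cycle genes, was 347-fold higher. The 2 lower genes were the D-type cyclins of the G1 phase, Ccnd1 at 262, 182, 142 and 219 CPM against 2295 CPM and Ccnd2 at 4.52, 5.43, 4.09 and 6.99 CPM against 1640 CPM. The embryonic fibroblasts of the other strain held Top2a at 501 CPM and Ccnb1 at 142 CPM, above the TTF in both.

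Of 26 p53 targets and cell-cycle inhibitors 21 were not called, 4 were lower (15.4%, against 17.2% of all genes) and 1 was higher. Cdkn2a and Cdkn2b, which encode inhibitors that accumulate in ageing cultures, were at 16.7 to 23.5 CPM and 4.75 to 8.63 CPM in the lines, against 276 and 148 CPM in the TTF, and the MEF held them at 10.1 and 36.3 CPM. Cdkn1a, the main p53 target in growth arrest, was at 242, 311, 353 and 275 CPM in the lines and 1153 CPM in the TTF, 3.90-fold lower and not called. Ccng1 and Mdm2, targets of p53 as well, were 5.05-fold and 2.05-fold lower without a call, with #M2 the lowest and #F1 the highest line for these 3 genes. Trp73, a p53 relative, was the only member called higher, at 100, 128, 197 and 116 CPM against 0.158 CPM.

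Histone genes were lower in 25 of 34 cases and higher in none. H2bc4 was at 2.29, 2.64, 2.48 and 6.11 CPM in the lines and 177 CPM in the TTF, and H1f2, a linker histone, at 4.69 to 9.43 CPM against 157 CPM. Histone mRNA made during replication mostly lacks a poly(A) tail, so libraries of poly(A) RNA measure only the tailed part of it.

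**Figure D4:**
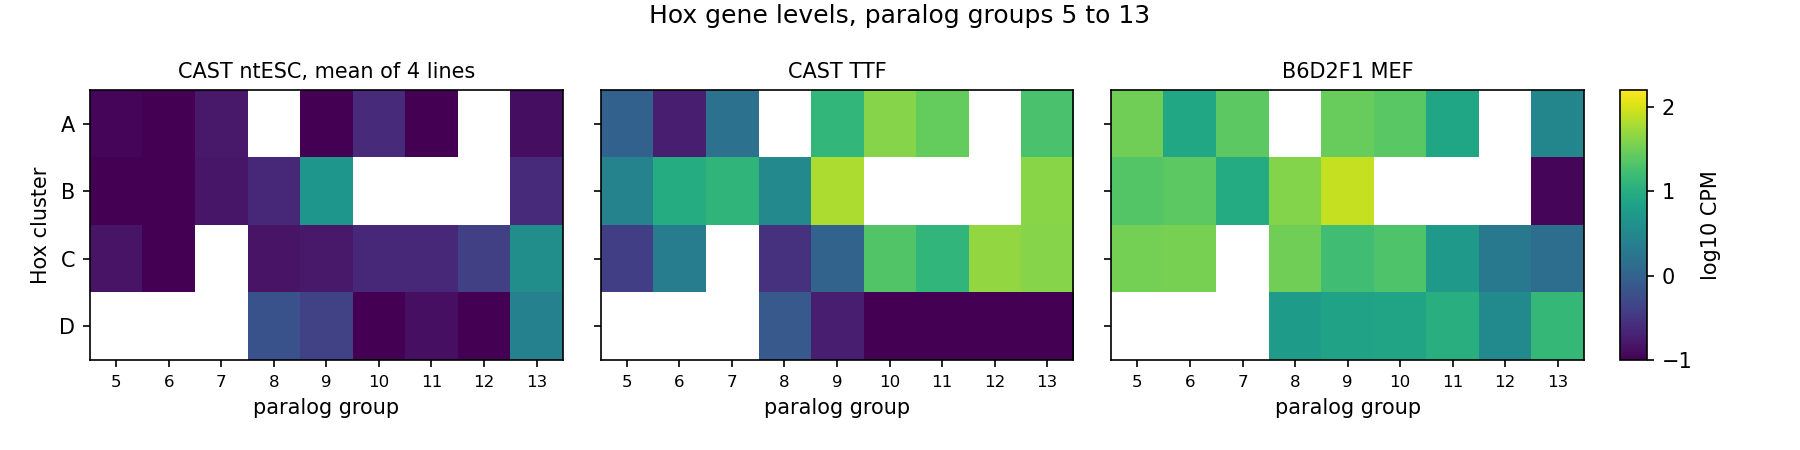
Levels of the Hox genes of paralog groups 5 to 13 (columns) by cluster (A to D, rows) as the mean of 4 CAST ntESC lines, in the CAST TTF and in the B6D2F1 MEF, as log10 of CPM with 0.1 CPM as the lowest colour. White squares are groups with no gene in that cluster. In the TTF the brightest squares lie in groups 9 to 13 of clusters A, B and C, and those of cluster D are all under 1 CPM.

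Hox genes, which mark position along the body axis, were called lower in 19 of 22 examined cases (median -5.53), and 17 of the 39 were under 1 CPM on both sides. Of the 16 genes in paralog groups 9 to 13, which mark the tail end, 12 were examined, 10 were lower and 1 higher, and they summed to 14.3, 15.5, 10.6 and 13.9 CPM in the lines and 335 CPM in the TTF. Groups 1 to 4 summed to 22.5 CPM and groups 5 to 8 to 34.5 CPM in the TTF. In the MEF the corresponding sums were 201, 268 and 234 CPM, without the excess of the last groups seen in the TTF. Hoxb13 and Hoxc12 stood at 0.0502 to 0.463 CPM and 0.125 to 0.642 CPM in the lines and at 42.9 and 48.5 CPM in the TTF, against 0.115 and 1.99 CPM in the MEF. All 9 genes of cluster D were under 1 CPM in the TTF. Hoxd13 was higher in the lines, at 4.19, 2.50, 1.51 and 2.12 CPM against 2 TTF counts, a ratio of 49.0 with a counting interval of 13.6 to 404.

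Of 25 genes of glycolysis and lactate handling, 6 were called higher (24.0%, against 16.6% of all genes) and none lower (median 1.18). Slc2a3, a glucose transporter of high affinity, was at 734, 898, 1282 and 1163 CPM in the lines and 45.0 CPM in the TTF, and Pfkp, a phosphofructokinase, at 586 to 651 CPM against 59.9 CPM. Pkm, the last enzyme of the pathway, was not called, at 3425 to 4869 CPM against 3134 CPM. Tdh, which turns threonine into glycine and acetyl-CoA in mouse ESCs, was at 386, 244, 192 and 353 CPM with no TTF count, and Gldc, which feeds one-carbon units from glycine, at 138 to 160 CPM against 0.316 CPM. In this one-carbon group 8 of 19 were higher and 1 lower (42.1 and 5.26%, against 16.6 and 17.2% of all genes).

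Housekeeping groups were seldom called. None of 35 aminoacyl-tRNA synthetase genes passed in either direction, 1 of 49 respiratory complex I genes was higher, and 1 of 78 mitochondrial ribosomal protein genes was higher. Of 87 cytosolic ribosomal protein genes, 5 were higher, among them the tissue-restricted copies Rpl10l, at 27.0 to 73.4 CPM with no TTF count, and Rps4l, at 451 to 638 CPM against 10.5 CPM, while the median of the group was 1.16 and its summed level 57321 to 63822 CPM against 27598 CPM. Canx, the calnexin gene used as a reference, was at 709, 784, 846 and 756 CPM in the lines and 899 CPM in the TTF, and Actb at 1958 to 2511 CPM against 2487 CPM. The log2 fold changes of both, -0.22 and -0.17, turned to 0.11 and 0.15 when only library size was used for scaling. Of 16 genes often used as references 13 were not called, 1 was higher (Tfrc, with a mean of 887 CPM in the lines and 48.5 CPM in the TTF) and 2 were lower (12.5%, against 17.2% of all genes). Gusb was 23.5-fold lower in the lines (7.48 to 8.86 CPM against 193 CPM) and B2m 51.8-fold lower (8.99 to 17.4 CPM against 642 CPM).

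B2m encodes the light chain of MHC class I. Of 18 genes of antigen presentation, 8 were called lower and none higher (median -1.79). H2-D1, a class I heavy chain, was at 4.03, 6.41, 5.47 and 7.84 CPM in the lines and 96.6 CPM in the TTF. Tap2, a subunit of the peptide transporter, was at 0.976 to 2.66 CPM against 68.5 CPM. H2-K1 was not called, at 8.22 to 10.8 CPM against 35.7 CPM, and reads of these polymorphic genes align less surely in a wild-derived strain. Of 32 interferon response and RNA sensing genes 13 were lower and 3 higher (40.6 and 9.38%, against 17.2 and 16.6% of all genes). Oas1a, a sensor of double-stranded RNA, was among the few higher ones at 43.0 to 56.6 CPM with no TTF count.

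Imprinted genes, expressed from 1 parental copy, were higher in 12 of 38 cases, lower in 7 and not called in 19. The share called higher was 31.6%, against 16.6% of all genes, and the share called lower 18.4%, near the 17.2% of all genes. Several that the lines expressed were nearly off in the TTF. Slc38a4, an amino acid transporter of the placenta, was at 349, 341, 296 and 385 CPM in the lines against 0.632 CPM, Peg3 at 437, 568, 766 and 374 CPM against 4.58 CPM, and Mest at 158, 116, 77.7 and 167 CPM against 1.18 CPM. The MEF held these genes at 640, 1377 and 941 CPM. H19, a maternally expressed RNA picked after its values were seen, was at 78.3 to 181 CPM against 4.16 CPM in the TTF, and the MEF held 8554 CPM. Meg3 and Rian, the noncoding RNAs of the Dlk1-Dio3 region, were present on both sides, at 214 to 248 CPM against 184 CPM and at 152 to 197 CPM against 183 CPM, without a call. Ndn, a growth suppressor expressed in mesenchyme, was lower in the lines, at 7.53 to 13.1 CPM against 160 CPM.

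Some TTF genes do not belong to the textbook fibroblast. Among joint and cartilage surface genes, Cilp was at 0.150 to 0.301 CPM in the lines and 2045 CPM in the TTF. Prg4, the lubricin of joints, was at 1.0 to 2.04 CPM against 1698 CPM. Of the 2 cartilage markers, Sox9 was also lower in the lines, at 0.257 to 0.812 CPM against 6.21 CPM. Acan went the other way, at 3.93 to 5.52 CPM against 0.290 CPM. So did the collagen gene Col2a1, at 5.47 to 9.09 CPM against 0.421 CPM. Of 15 genes of cartilage, bone and tendon, 10 were lower and 5 higher, against 17.2 and 16.6% of all genes. The 5 included Alpl, the alkaline phosphatase that also marks ESCs, at 294 to 374 CPM in the lines and 0.553 CPM in the TTF. Prl2c2, a proliferin gene counted here on the trophoblast list, had 3 counts in line #M2 and none in the other lines, and 862 CPM in the TTF. It is a near copy of Prl2c3, which had 262 CPM in the TTF, so the split of reads between them is uncertain. Esm1 and Clec1a, genes known from endothelium, were at 460 and 229 CPM in the TTF, and the 7 endothelial markers summed to 13.3 to 15.4 CPM in the lines and 67 CPM in the TTF. Most of the TTF sum was Tek, an angiopoietin receptor, at 1.2 to 2.18 CPM in the lines and 60.9 CPM in the TTF. Kdr and Vwf were at 4.55 and 1.11 CPM in the TTF and Erg at 0.474 CPM, while the endothelial cadherin gene Cdh5 had no count there, nor did Tie1 and Emcn. The part of endothelial cells in these levels was not tested.

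Leukocyte genes were of interest because leukocytes gave the nuclei. None of 22 examined was called higher in the lines and 13 were called lower. The 7 leukocyte markers summed to 7.58, 8.97, 5.77 and 8.44 CPM in the lines and 375 CPM in the TTF, most of it from Lyz2, the macrophage lysozyme, at 1.68 to 4.8 CPM in the lines and 325 CPM in the TTF. Csf1r, the receptor of Csf1 on macrophages, was at 0.729 to 1.04 CPM in the lines and 26 CPM in the TTF, and Cd53 and Ptprc, membrane proteins of leukocytes, were at most 0.171 and 0.334 CPM in the lines and 13.7 and 4.13 CPM in the TTF. Of the pair of neutrophil proteins, S100a8 had no count in the lines and 4.16 CPM in the TTF, and S100a9 had no count in any of the 5 libraries. The marker Spi1 went the other way, at 3.67, 4.33, 2.99 and 2.74 CPM in the lines and 2.34 CPM in the TTF. The part of leukocytes in the calls was not tested. The keratinocyte, skeletal muscle, cartilage, and melanocyte and Schwann markers summed to 0.50, 5.82, 6.50 and 4.03 CPM in the TTF. These sums cover 3, 4, 2 and 4 genes and the leukocyte and endothelial sums 7 each, so they are not ranked.

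The 4 lines also differed among themselves on the X chromosome. Over 383 X-linked genes with at least 5 CPM in every line, the median log2 level over the mean of the male lines was 0.13 in #F1 and 0.43 in #F2, and 41 and 148 of the 383 genes were more than 0.5 above it. On autosomes the medians lay between -0.01 and 0.01, and 567 genes in #F1 and 163 in #F2 of 10151 were more than 0.5 above the male lines. Of 657 X-linked genes examined against the TTF, 178 were higher and 84 lower, with a median of 0.61, against 16.6 and 17.2% over all genes. Among the 8 called genes of widest range between lines, 5 were X-linked and highest in #F2, such as Pramel3, with 4.24, 3.62, 6.05 and 31.5 CPM and no TTF count. Rhox5, an X-linked homeobox gene, was at 47.5, 41.4, 63.2 and 137 CPM, also without a TTF count. Xist was at 10.7, 12.3, 20.1 and 29.8 CPM in the lines, against 2 counts in the TTF, and at 498 CPM in the MEF.

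Mitochondrially encoded genes were never called in 13 cases (median -0.11), with mt-Co1 at 9797 to 12317 CPM in the lines and 7189 CPM in the TTF. The mitochondria of the lines came with the oocyte of another strain, so a difference in how these reads align cannot be told apart from a difference in level.

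The same rule was applied in the other strain, with its own fibroblasts. In B6D2F1 ntESC lines against the MEF, 1678 of 16714 genes were called higher (10%) and 2982 lower (17.8%). Of the 2765 genes higher in the CAST lines, 1006 were also higher there, which is 36.4% of the CAST and 60% of the B6D2F1 calls, and 130 were called lower. Of the 2859 lower genes, 1360 were lower in both (47.6 and 45.6%) and 32 were higher in B6D2F1. Pou5f1, Esrrb and Cdh1 were called higher in both strains and Timp2, Col12a1 and S100a4 lower in both. Among genes called in opposite directions, Mest and H19 were low in the TTF and high in the MEF, as were Nes, a filament of progenitor cells (41.3 to 58.0 CPM in the CAST lines, 4.11 CPM in the TTF, with 786 CPM in the MEF), and Fbn2, a fibrillin of the embryo (7.25 to 12.8, 0.290 and 1121 CPM). Hoxb13 and Gadd45a were high in the TTF and low in the MEF. Strain, tissue and age of the fibroblasts cannot be told apart here, and with 1 fibroblast library per strain the difference between strains was not tested.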

How the data were processed

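Poly(A) RNA of 13 cultures had been sequenced as stranded, paired-end libraries. In the authors' processing, reads passed fastp 0.22.0, HISAT2 2.2.1 aligned them against GRCm38, and StringTie 2.1.7 gave the gene values. edgeR is also named, but no version of it. For 21706 genes the authors deposited raw, whole-number counts, which were used as they stand. The table of log2 values that the authors deposited was matched within 5.0e-05 by log2(count / size factor + 4), where DESeq2 size factors ran from 0.821 to 1.26, and it was not used further. Reads of CAST mice were thus aligned to the genome of another strain, and the effect on single genes was not tested. Coordinates and gene types came from GENCODE M21, in which 21675 genes were found, and 94 genes had no symbol in the table.

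Library sizes were multiplied by TMM factors of all 13 libraries (edgeR 4.0.16, R 4.3.3), 0.825 for the TTF and 1.010 to 1.051 for the CAST lines. With 1 TTF library the calls rest on no test, and no p-value is given. Genes were called by size alone: every line at least 4-fold from the TTF, the higher side at least 1 CPM, and levels under 3 counts set to 3 counts. Where a side had 1 to 3 counts, the ratio is given with an exact 95% Poisson interval. Intervals and floors cover counting error only. The size rule and both tests were tested on simulated data. Genes were named by rule: Pou5f1, Sox2, Nanog and Canx, the 15 of largest change in each direction with at least 20 CPM, up to 6 called, 4 opposite and 4 uncalled members of each list, the 8 of widest range between lines with at least 5 CPM, and the cell type markers, of which the text prints a part. Exceptions are stated. The members, lists and markers were chosen with earlier results of these data known. Alternatives were other scalings (DESeq2 1.42.0 size factors, library size alone, the 5 CAST libraries), filters, folds, left-out lines, and edgeR and DESeq2 tests that take the TTF to vary like the lines. Medians over a list include the genes at their bound.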

Additional observations from a re-analysis of the deposited data

Results flagged for a closer look

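Among 140 printed genes with at least 1 CPM in some line, 4 had 1 line far from the other 3. Chance alone gives about 1 in 20 groups, so these 4 are no more than chance would give. Pramel3 was at 31.5 CPM in #F2 and at 3.62 to 6.05 CPM in the others, and was printed because of its wide range between lines. H2bc4 was at 6.11 CPM in #F2 and at 2.29 to 2.64 CPM in the others, against 177 CPM in the TTF. H2-K1 was at 8.22 CPM in #M2 and near 10.8 CPM in the others, and Tgfbr1 at 60.9 CPM in #F1 and at 78.7 to 80.8 CPM in the others. Without #F2, the log2 fold change of Pramel3 was lower by 1.29.

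For 10 printed genes every CAST line lay on the other side of its fibroblasts than every B6D2F1 line. The difference between strains was not tested, since each has 1 fibroblast library. Higher in the CAST lines than in the TTF, and lower in the B6D2F1 lines than in the MEF, were Mest (log2 fold change in CAST 6.77), H19 (4.92), Fbn2 (5.22), Nes (3.63), Myh3 (4.83) and Sox11 (4.62). Xist (7.85) and Hoxd13 (5.03) showed the same with the 2 TTF counts of each set to 3. The ratio of Xist from its 2 counts was 346, with a counting interval of 95.8 to 2857. Lower in the CAST lines than in the TTF, and higher in the B6D2F1 lines than in the MEF, were Hoxb13 (-7.42) and Gadd45a (-2.65), a gene of the DNA damage response at 15.2, 20, 26.9 and 17.5 CPM in the CAST lines and 125 CPM in the TTF, against 64.4 and 80.4 CPM in the B6D2F1 lines and 10.8 CPM in the MEF.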

How the results depend on the processing

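The counts of called genes changed with the fold, the treatment of low levels and the method. With at least 2-fold in every line, 4672 genes were higher and 4704 lower, and with at least 8-fold 1921 and 1780. A minimum of 5 CPM gave 1695 higher and 2320 lower genes, and adding 1 CPM to every level in place of the floor 1532 and 2179, so that 42.2 and 41.3% of calls were higher, against 49.2%. The edgeR test called 4522 genes higher and 3446 lower, and the DESeq2 test 4322 and 3441, with the spread of the TTF assumed from the lines. Without each line in turn there were 2786 to 2849 higher and 2905 to 2956 lower genes. The other scalings gave 2665 to 3190 higher and 2409 to 2967 lower genes. In the B6D2F1 comparison library size alone gave 1598 and 3135. Of the 159 printed genes, 5 uncalled ones changed sign with library size alone, among them Canx, Actb and Rian. None that was called changed sign, but the 4-fold rule in every line left no room for that under these settings. Adding 1 CPM moved 91 of the 159 log2 fold changes by more than the SD between lines. No paired analysis was possible because the fibroblast side has 1 library and the lines share no number with it. Depth limits genes without a count on one side, whose folds are lower bounds.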

Other observations

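Of 7 skeletal muscle genes examined, 5 were called higher in the CAST lines against the TTF and none lower. Myh3, an embryonic myosin, was at 3.49, 3.64, 6.27 and 4.57 CPM in the CAST lines and 0.158 CPM in the TTF, and the MEF held it at 345 CPM. The 18 genes of this list summed to 19.8 to 26.9 CPM in the CAST lines, 10.8 CPM in the TTF, while the MEF had 1987 CPM. Of 11 neural genes, 5 were higher and 3 lower (45.5 and 27.3%, against 16.6 and 17.2% of all genes). Sox11, a factor of early neurons, was at 12.1 to 15.3 CPM in the CAST lines, 0.553 CPM in the TTF, while the MEF had 286 CPM.

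Genes of the trophoblast list were higher in 7 of 11 cases and lower in 2 (18.2%, near the 17.2% of all genes). Their summed level went the other way, at 446 to 604 CPM in the lines and 984 CPM in the TTF. Most of this TTF sum was the single gene Prl2c2, whose log2 fold change of -13.59 was the lowest of the list. The split of reads between Prl2c2 and its near copy is uncertain, so the sum does not describe the list as a whole. Gcm1, a factor of placental syncytium, was at 6.63, 8.39, 9.66 and 7.76 CPM in the CAST lines with no TTF count, and Tead4 at 39.5 to 51.6 CPM against 4.11 CPM. The 11 genes of the 2-cell-like list in the table averaged under 1 CPM in the lines, and summed to 8.79, 7.54, 3.97 and 3.45 CPM in the lines with no count in the TTF. In the list of heat shock and unfolded protein genes, 4 of 20 were called higher (20%, near the 16.6% of all genes) and none lower. Atf3 was at 40.9, 61.3, 83.3 and 78.4 CPM in the lines and 2.16 CPM in the TTF, and Asns, which makes asparagine, at 332 to 458 CPM against 44.4 CPM.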
